A study of Apis mellifera with 9 samples.

Results

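Of the 2673 long non-coding RNA (lncRNA) genes listed in the ovary of honey bee workers, 1137 (42.5%) lay away from coding genes, among 13204 listed features in all. A gene was counted here when its start to end, on either strand, overlapped no protein-coding feature of the same chromosome or scaffold. Without exclusions the rule found 1139 genes. It set aside 5 named lncRNA genes, and 2 of these 5 overlapped nothing coding. These 2 are left out of the 1137 and so of the shares and rankings below. The 1534 lncRNA genes that overlap a coding feature serve as the comparison class, beside 10271 protein-coding features. The other 3 named genes overlap a coding feature and stayed in that class. The study catalogued coding and non-coding RNAs in ovaries of 4-day-old workers of Apis mellifera, with no treatment and 1 biological group. Each of 3 pools held 40 ovary pairs from a single colony, out of 5 colonies with sister queens, and no mutant or transgene was used. Every pool was profiled as an rRNA-depleted RNA-seq library, an RNase R-treated circRNA library and a small RNA library, 9 libraries in all. Worker ovaries are small and mostly inactive in a colony with a queen, so a pool of dissected organs holds germ line, follicle, sheath and attached tissue together.

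Long non-coding RNAs are transcripts longer than small RNAs that lack an evident coding frame, and many are spliced and polyadenylated like mRNAs. Those between coding genes, often called intergenic lncRNAs, tend to have low levels and strong tissue preference in insects and vertebrates. Some act on neighbouring genes, some carry precursors of miRNAs or give circular RNAs, and for most in the honey bee no role is known. Examples described in the bee brain include Ks-1, a nuclear RNA of Kenyon cells of the mushroom bodies, and Kakusei, a nuclear RNA induced by neural activity.

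Levels are in FPKM, fragments normalised for exonic length and for sequencing depth, as the authors deposited them. Class levels are medians of log2(FPKM + 1) per library over genes with mean FPKM above 0.1, and ± gives the SD between the pools (n = 3). A series of 3 levels follows the pool numbers. Positions are those of the deposited table, on numbered linkage groups (LG). The RNA-seq libraries held 31930244, 27684048 and 26602582 fragments, and 0.457%, 0.519% and 0.536% of them fell in the lncRNA genes away from coding genes. Exonic lengths were worked out from the FPKM, as the smallest length that gave whole fragments in all 3 libraries. The exonic length and fragment count of a gene are therefore lower bounds. Germ line markers of the ovary were present in every pool, with vas, the germ line helicase vasa, at 18.1, 25.4 and 26.6 FPKM. Pool 1 stood apart in markers of gut and muscle. The summed FPKM of 11 trypsin and chymotrypsin features was 111, 8.46 and 10.7, and all 11 were highest in pool 1, with LOC724565 listed at 0 in pool 2 and LOC409626 at 0 in pool 3. The 13 muscle features summed to 1500, 766 and 696 FPKM, and 12 of the 13 were highest in pool 1. The 41 cuticle features summed to 1605, 769 and 637 FPKM, with 24 of 41 highest in pool 1, and without the apidermin gene Apd-3 (918, 21.8 and 35.7 FPKM) they summed to 688, 748 and 602. The 9 germ line features summed to 390, 586 and 605 FPKM, and 0 of the 9 were highest in pool 1. Most of the lower sum in pool 1 came from LOC411907, a cytoplasmic polyadenylation element-binding protein 1 gene, at 110, 280 and 275 FPKM. LOC100576747 (67.4 and 67.3 FPKM), LOC724775 (63.5 and 61.7), LOC409557 and nanos were nearly even between pools 1 and 2. The vas gene, LOC551582, LOC100576828 and LOC726241 were lower in pool 1 than in both others. In such bulk samples, fewer cells of a type and less RNA per cell cannot be told apart.

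The lncRNA genes away from coding genes were short, and for nearly all the exonic length was below the span. Their median span was 2601 bp and their median exonic length 1219 bp, against 2812 bp and 1345 bp for overlapping lncRNA genes and 3917 bp and 1955 bp for coding features. Exonic length equalled span in 2 of the 1137, and Ks-1 was one of these. A length below the span can come from splicing or from the lower bound. They occurred on all 16 linkage groups, from 27 on LG15 to 120 on LG6. Unplaced scaffolds carried 202 of them, which was 92.7% of the 218 lncRNA genes listed there, and 131 shared their scaffold with no listed coding feature. Every listed feature had at least 1 fragment in some pool, so a coding gene without any fragment would not have been seen as a neighbour. Another lncRNA gene overlapped 170 of them (15.0%), on the opposite strand for 138. Whether counting used the strand is not stated, so reads of such pairs may be shared.

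Most of these genes had low levels. The mean FPKM was under 0.1 for 146 genes, from 0.1 to 1 for 493, from 1 to 5 for 363, from 5 to 20 for 103 and 20 or more for 32. At 1 FPKM or more in every pool stood 373 genes (32.8%), against 599 overlapping lncRNA genes (39.0%), 8221 coding features (80.0%) and 70.5% of all listed features. In no pool did 549 genes (48.3%) reach 1 FPKM. The median level was 0.98 ± 0.06 on the log2(FPKM + 1) scale, against 1.10 ± 0.08 for overlapping lncRNA genes and 4.08 ± 0.05 for coding features. The difference between the 2 lncRNA classes was -0.09, -0.16 and -0.11 in the 3 pools (mean -0.12 ± 0.04). All 3 pools showed this sign. An exact permutation test that flips the signs of the pools (two-sided) gave p = 0.25, the smallest that 3 pools allow, and 0.25 after adjustment over 4 such tests. Against lncRNA genes overlapping a coding feature on the opposite strand alone the difference was -0.03 ± 0.03, and with a pseudocount of 0.1 it was -0.22 ± 0.06. Depth limits the lower end of this range, and 158 genes were listed at 0 in at least 1 pool. By the lower-bound counts, 63 genes had 3 fragments or fewer over all libraries and 511 had 100 or more.

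**Figure D1:**
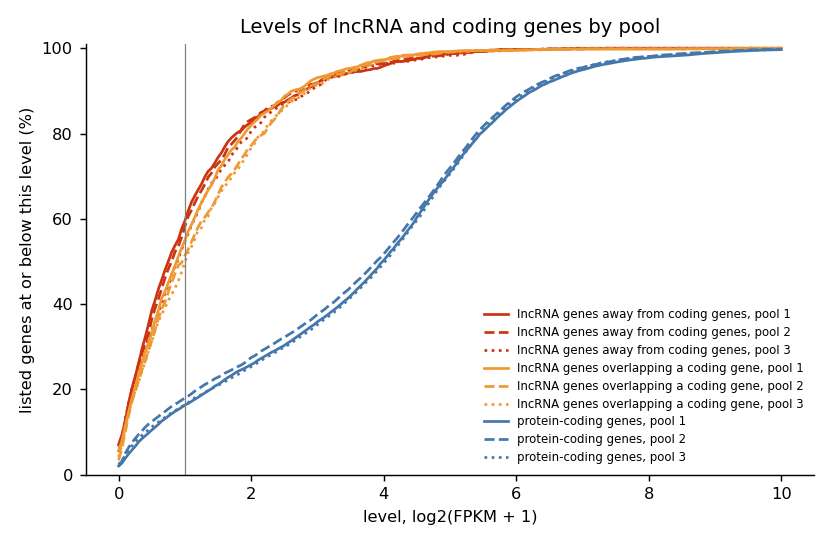
Cumulative share of listed genes (%) at or below each level, log2(FPKM + 1), for lncRNA genes away from coding genes, lncRNA genes overlapping a coding gene and protein-coding genes, with a line for each pool; the grey line marks 1 FPKM. The lncRNA classes lie close together and far to the left of coding genes, with median levels of 0.98, 1.10 and 4.08 among genes above the low filter.

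The signal was unevenly spread: the 10 genes with the highest mean FPKM held 13.02% of the fragments of the class and the highest 100 held 55.1%. LOC102655407, on LG11 at 8781515 to 8783793 (plus strand), was the highest of the 1137 with 161, 113 and 147 FPKM (140.5 ± 24.5). Its nearest coding gene, the mitochondrial thiamine pyrophosphate carrier-like LOC727424, lay 1539 bp away at 7.99, 3.37 and 9.80 FPKM. The lncRNA gene was above its neighbour in every pool, and the deposited annotation gives its best protein match as an ATP-dependent RNA helicase of the DDX5 kind. A newer RefSeq annotation lists this gene as protein-coding. LOC100577032, on LG2 at 12836439 to 12850179, followed with 88.1, 99.7 and 113 FPKM. It ends 16 bp upstream of LOC551167, a multidrug resistance protein 49-like ABC transporter gene on the same strand, which stood at 73.0, 93.4 and 96.1 FPKM. Both were lowest in pool 1 and highest in pool 3, and their ranges overlapped. LOC100577216, on an unplaced scaffold with no coding feature, had 113, 83.2 and 81.3 FPKM, with pool 1 above the others.

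The other 7 of the highest 10 lay between 37.3 and 55.7 FPKM on average. LOC107964811 had 51.9, 59.1 and 56.0 FPKM (55.7 ± 3.59) and lies 75 bp upstream of LOC100577746, which encodes a polyadenylate-binding protein-interacting protein, at 37.1, 50.9 and 46.9 FPKM. The deposited protein match of the lncRNA gene is to the same kind of protein, and gene-level FPKM cannot tell a separate lncRNA from a part of its neighbour's transcript. LOC107964436, a gene of 396 bp, had 47.0, 62.6 and 56.3 FPKM, with a protein match to an RNA-binding motif protein and a protein-coding entry in the newer RefSeq table. Its nearest coding gene, the katanin subunit LOC413966 (microtubule severing), stood at 12.1, 8.65 and 10.01 FPKM, below it in every pool. LOC107965177 had 44.3, 45.2 and 53.4 FPKM with no protein match, 19521 bp from LOC551425, the gene of the enzyme that adds N-acetylglucosamine to proteins, at 81.2, 117 and 119 FPKM. LOC102656819, LOC107964581, LOC724490 and LOC100578870 averaged 45.7, 37.7, 37.3 and 37.3 FPKM. Their nearest coding genes were a ubiquitin hydrolase 8-like gene at 25.6 FPKM, an unconventional myosin-IXa gene at 25.8, the RNA polymerase II elongation factor ELL2-like gene at 35.4 and a cysteine-rich motor neuron 1-like gene at 8.96. By their means these 4 lncRNA genes were above the coding gene next to them, although the pools of LOC724490 (52.6, 25.3 and 33.9 FPKM) overlapped those of ELL2-like (32.4, 39.3 and 34.5).

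**Figure D2:**
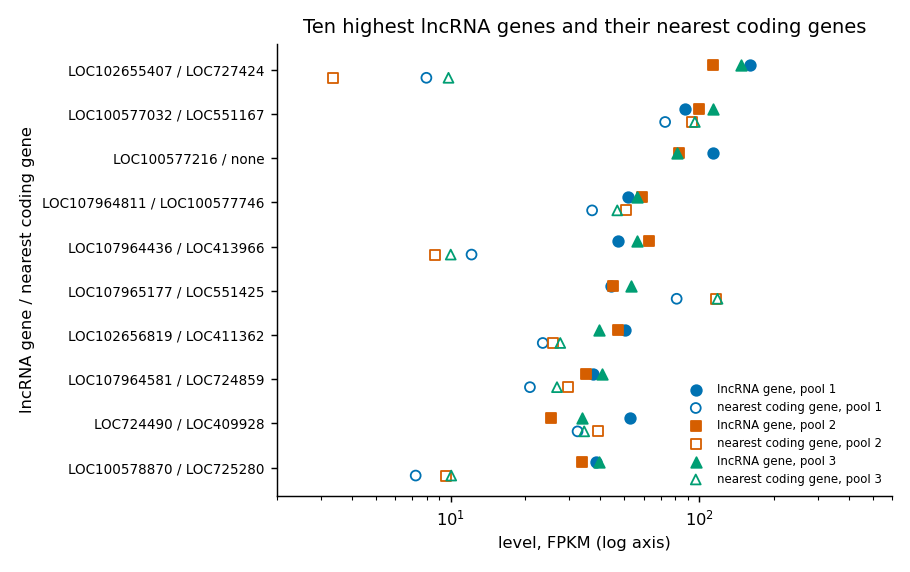
FPKM (log axis) of the 10 lncRNA genes with the highest mean level (filled symbols) and of their nearest coding genes (open symbols), a symbol for each pool. LOC102655407 averaged 140.5 FPKM against 7.05 for its neighbour, whereas LOC107965177, at 47.6, lay below its neighbour at 106 in every pool.

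The brain lncRNAs Ks-1 and Kakusei were listed away from coding genes. Ks-1, on LG1 at 16670355 to 16687752, had 1.44, 2.30 and 3.49 FPKM (2.41 ± 1.03), and through its exonic length of 17398 bp these stood for 800, 1107 and 1617 fragments. Ks-1 was therefore detected in every ovary pool, lowest in pool 1, and its nearest coding gene LOC412948, a delta-1-pyrroline-5-carboxylate synthase-like gene of proline synthesis, was lowest in pool 1 too at 27.5, 45.2 and 47.9 FPKM. Kakusei was listed at 0, 0.0255 and 0 FPKM, which is 5 fragments in pool 2 and none in pools 1 and 3. At this depth Kakusei was close to undetected in the ovary pools. The troponin I gene TpnI, a muscle gene 5723 bp from it, had 110, 46.1 and 49.0 FPKM.

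For the 1006 genes with a coding feature on the same sequence, the gap to the nearest was 1 to 266529 bp, with a median of 3930 bp and quartiles of 837 and 14728 bp. In every pool the level was higher close to coding genes than far from them. It was 1.06 ± 0.07 on the log2(FPKM + 1) scale for gaps up to 1 kb and 1.02 ± 0.05 from 1 to 5 kb. From 5 to 20 kb it was 0.86 ± 0.09, from 20 to 100 kb 0.83 ± 0.08 and beyond 0.67 ± 0.07. These bins held 270, 284, 261, 172 and 19 genes. The medians are over the 243, 257, 217, 140 and 15 of them that passed the low filter. Genes within 5 kb exceeded those farther away by 0.25, 0.18 and 0.18 in the 3 pools (mean 0.20 ± 0.04), or a median of 1.12 against 0.822 FPKM. All 3 pools showed it, and the exact sign-flip permutation test gave p = 0.25, the smallest possible (adjusted 0.25). With distance taken between gene starts the difference was 0.08 ± 0.03, and with a pseudocount of 0.1 it was 0.38 ± 0.10. The 131 genes on scaffolds with no coding feature, 119 of them above the low filter, were at 1.12 ± 0.09, as high as the genes closest to coding genes.

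Position relative to the neighbour was scored in 4 classes. In 306 genes (30.4%) the lncRNA and the coding gene were head-to-head, on opposite strands with their starts facing, as in divergent promoters. This class lay closest, with a median gap of 2373 bp and 39.2% of its genes within 1 kb, against 4278 bp and 19.9% for the 236 lncRNA genes downstream of a coding gene on the same strand. The 268 genes upstream on the same strand had a median gap of 3964 bp, and the 196 tail-to-tail genes, which end towards each other, 4882 bp. Median levels were 0.93 ± 0.09 head-to-head, 1.05 ± 0.06 downstream, 0.96 ± 0.04 upstream and 0.90 ± 0.05 tail-to-tail on the log2(FPKM + 1) scale. Head-to-head genes were -0.10, -0.05 and -0.03 relative to the rest (mean -0.06 ± 0.04, exact sign-flip permutation p = 0.25, the smallest possible, adjusted 0.25). This small difference changed sign to 0.02 ± 0.03 when genes of low level were kept, so no direction is given for it.

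**Figure D3:**
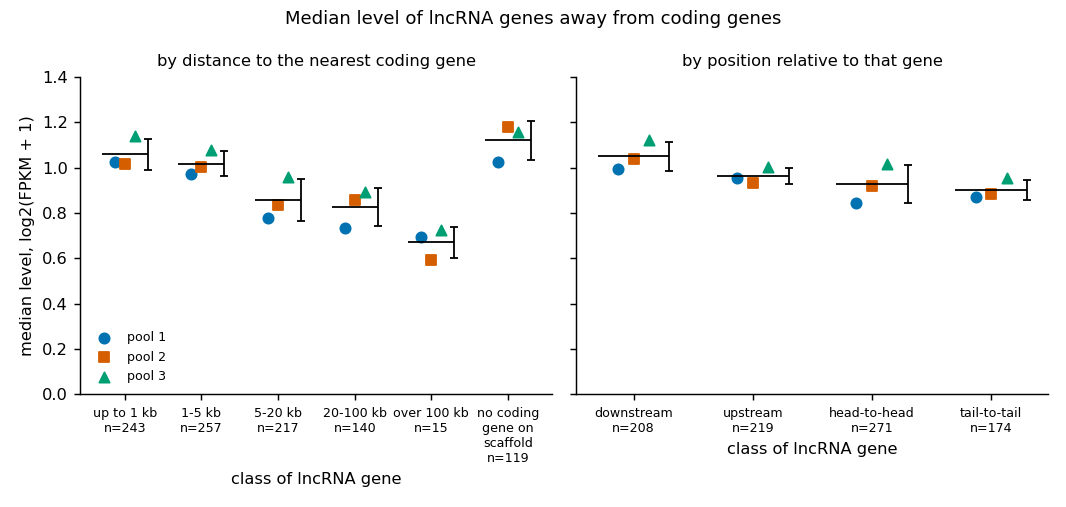
Median log2(FPKM + 1) of lncRNA genes away from coding genes in each pool (symbols), with the mean over pools (line) and SD (error bar), by distance to the nearest coding gene (left) and by position relative to it (right); n is the number of genes above the low filter. The medians step from 1.06 within 1 kb to 0.67 beyond 100 kb, a bin with 15 genes, while genes with no coding gene on the scaffold stand at 1.12.

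The coding genes beside them were of lower level than coding genes at large. Of the 710 nearest coding genes, each counted once, 675 passed the low filter. Their median level was 3.30 ± 0.08 on the log2(FPKM + 1) scale against 4.08 ± 0.05 for all coding features, a median of 9.12 against 16.2 FPKM. The difference was -0.79, -0.80 and -0.76 (mean -0.78 ± 0.02), below 0 in 3 of 3 pools (exact sign-flip permutation p = 0.25, the smallest possible, adjusted 0.25). The 710 neighbours also stood farther from other coding genes, at a median of 1572 bp from the next against 279 bp for other coding genes. With both sides limited to coding genes at least 1 kb from the next, a comparison chosen after the data were seen, the difference was -0.81 ± 0.02.

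Across 834 pairs with both means above 0.1 FPKM, involving 601 coding genes, the levels of lncRNA gene and neighbour had a Spearman's rho of 0.129 (0.123, 0.143 and 0.132 in the pools). The pairs share libraries and some share a neighbour, so this describes the pairs and carries no test. The coding gene on the other side of the lncRNA gene gave 0.0958. In 365 pairs with both means at 1 FPKM or more, the lncRNA gene was the higher of the pair in 67, and the median difference was -1.53 on the log2(FPKM + 1) scale. Genes upstream of their neighbour within 1 kb came closest to it, with 21 of 32 pairs within 2-fold (65.6%) against 34.2% of all pairs. At that distance it was 11 of 24 downstream, 13 of 43 head-to-head and 3 of 16 tail-to-tail pairs. Over all distances, neighbours of upstream genes also had the lowest median. It was 5.71 FPKM, against 8.07 downstream, 10.5 head-to-head and 12.2 tail-to-tail. The part of neighbour level in these shares was not tested.

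The 5 lncRNA genes closest to a coding gene, among those at 5 FPKM or more, lay 16 to 79 bp away, and 4 of these 5 were upstream on the same strand. Besides LOC100577032 and LOC107964811, described above, LOC102653799 had 14.4, 8.54 and 6.77 FPKM at 54 bp from LOC724780, a G-protein coupled receptor of the Methuselah kind, at 17.9, 9.13 and 9.46. Both were highest in pool 1, by 2.13 and 1.96 times over their lowest pool. LOC107965478 had 10.1, 9.99 and 11.2 FPKM at 79 bp from the uncharacterized LOC408462 at 12.1, 12.4 and 11.98. LOC107964652, the head-to-head case at 36 bp, had 6.69, 7.71 and 6.90 FPKM beside a kynurenine formamidase-like gene of tryptophan breakdown (LOC726754) at 4.27, 4.63 and 3.95. In each of these 5 pairs the means of lncRNA gene and neighbour were within 2-fold.

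The lncRNA genes farthest above their neighbour, after LOC102655407, were LOC107964034, LOC724221, LOC102654412 and LOC100577794, among pairs with both means at 1 FPKM or more. LOC107964034 had 49.9, 12.1 and 17.6 FPKM over an exonic length of at least 128 bp, 7069 bp upstream of the gene of the Wnt ligand wingless (LOC413502) at 1.57, 1.12 and 1.43. LOC724221 had 32.6, 12.5 and 23.0 FPKM, 530 bp from an ADAMTS-type metalloproteinase gene (LOC412888) at 1.71, 2.10 and 2.54, and the newer RefSeq table lists it as protein-coding. LOC102654412 averaged 15.0 ± 4.401 FPKM, 34721 bp from the aryl hydrocarbon receptor protein 1 gene LOC411264 at 1.25 ± 0.118. In all of these pairs the lowest pool of the lncRNA gene was above the highest pool of the coding gene.

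At the other end stood quiet lncRNA genes beside very abundant coding genes. LOC107964678 had 1.82, 2.49 and 1.63 FPKM at 1372 bp from Def1, the antimicrobial peptide defensin-1, at 1417, 676 and 579. LOC107965107 had 1.18, 1.24 and 1.68 FPKM at 2144 bp from an antithrombin-III gene (LOC413749, a serpin) at 527, 736 and 580. LOC102656932 averaged 3.48 ± 0.771 FPKM beside a yellow gene (LOC724293) at 824 ± 129. The pair LOC107965316 and ribosomal protein L36 (LOC551870), 335 bp apart, stood at 2.70, 0.604 and 0.871 FPKM for the lncRNA gene and 594, 220 and 461 for the coding gene. Both were highest in pool 1 and lowest in pool 2. LOC102656854, beside the venom protein gene C1q-VP at 589 ± 148 FPKM, averaged 2.78 ± 0.447 FPKM and was also lowest in pool 2 along with its neighbour.

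Genes far from any coding gene were measured at 5 FPKM or more as well. LOC100578870, on LG1 at 17891053 to 17910867, is 60717 bp from a coding gene and had 38.4, 33.8 and 39.6 FPKM, a spread of 1.17 times between pools. LOC100578173, 71465 bp from a coding gene on an unplaced scaffold, had 14.5, 16.97 and 23.2 FPKM. LOC107965766 and LOC100578019, on the scaffold of the odorant receptor 43a-like gene LOC726834, lay 116286 and 104172 bp from it and averaged 6.06 ± 0.881 and 5.18 ± 1.36 FPKM, above the receptor gene at 1.21 ± 0.431. LOC107966066 had 5.05, 4.15 and 7.70 FPKM at 62617 bp from a G12-like gene (LOC102654781) that was at 4.53 FPKM in pool 1 and listed at 0 in the others.

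Part of the lncRNA genes away from coding genes differed strongly between pools. Among those with a mean of 5 FPKM or more, the highest pool was at least 2 times the lowest in 37 of 135 (27.4%), against 11.0% of all listed features and 14.4% of overlapping lncRNA genes. At mean FPKM of 5 to 20, a range chosen after the data were seen, the shares were 30 of 103 (29.1%) for these genes and 12.1% for coding features. At a mean of 1 FPKM or more they were 35.5% for these genes, 31.7% for overlapping lncRNA genes and 17.2% for all listed features. The 2 lncRNA classes thus lay closer together at the lower cutoff than at 5 FPKM. Each pool is 1 library of 1 colony, so there is no test of these differences. The highest pool was pool 1 for 18 of the 37, which is 13.3% of the 135 against 6.60% of all listed features, pool 3 for 12 and pool 2 for 7, and the lowest was pool 2 for 22. Over all listed features that differed 2-fold, the highest was pool 1 for 493 of 820 and the lowest was pool 2 for 510 of 820. Leaving out pool 1 gave 10 of 133 (7.52%, against 3.30% of all features), leaving out pool 2 gave 19 of 140 (13.6%, against 4.50%) and leaving out pool 3 gave 33 of 131 (25.2%, against 9.45%). The share was 14 of 42 for genes within 1 kb of a coding gene, 4 of 36 from 1 to 5 kb, 11 of 37 beyond 5 kb and 8 of 20 on scaffolds with no coding feature. Of the 29 such genes with a neighbour, 22 had a neighbour at 5 FPKM or more, and 5 of these 22 neighbours (22.7%) differed 2-fold between pools. Beside the lncRNA genes that did not differ 2-fold, 8 of 63 such neighbours did (12.7%), and the difference between these shares was not tested.

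The widest difference was in LOC107964283, on LG1 at 17419383 to 17419945, with 29.0, 1.36 and 23.6 FPKM (368, 15 and 250 fragments). Pool 2 was far below both others, while the dysbindin gene LOC551978, 204 bp upstream on the same strand and known from vesicle traffic, was even at 26.0, 22.2 and 26.6. LOC102654832, on LG8 at 9754670 to 9756907, had the same shape with 34.8, 8.42 and 47.4 FPKM. Its head-to-head neighbour 507 bp away, LOC552498, a homologue of the DNA repair protein XP-C, was at 26.2, 26.9 and 26.4. LOC102654070, on LG10 at 9220327 to 9221263, had 28.0, 10.5 and 59.2 FPKM, 613 bp head-to-head from a glyceraldehyde-3-phosphate dehydrogenase 1-like gene (LOC413924) of less than 1 FPKM in each pool. Pool 2 was at least 2-fold below both others in 9 of the 135 genes at 5 FPKM or more (6.67%), against 2.62% of all listed features. In these 3 named cases pool 2 was at least 2.67-fold below pool 1, while the highest pool of the dysbindin and XP-C genes was 1.20 and 1.03 times their lowest.

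The other 5 of the 8 widest differences had pool 1 highest. Pool 1 was at least 2-fold above both others in 10 of the 135 genes (7.41%), against 2.29% of all listed features. LOC107965029 had 21.1, 1.59 and 4.44 FPKM, 25848 bp from the gene of the Wnt receptor frizzled-2 (LOC100576247) at 19.0, 17.4 and 17.4. LOC107964706 had 14.8, 1.96 and 3.93 FPKM, 16843 bp from an octopamine receptor gene (LOC412994) at 0.437, 0.485 and 0.407. The highest pool of these coding genes was 1.09 and 1.19 times the lowest. LOC726292 and LOC100576698, on scaffolds with no coding feature, had 16.0, 2.11 and 1.29 FPKM and 14.8, 2.93 and 2.56 FPKM. LOC102656801 had 24.7, 4.66 and 5.33 FPKM, 8232 bp from a paramyosin gene (LOC409787), a protein of the thick filament of invertebrate muscle, at 120, 71.4 and 44.0. Both were highest in pool 1, the pool with muscle markers at 1500 FPKM against 766 and 696 and digestive enzymes at 111 FPKM against 8.46 and 10.7. The part of other tissues in the levels that were high in pool 1 was not tested.

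**Figure D4:**
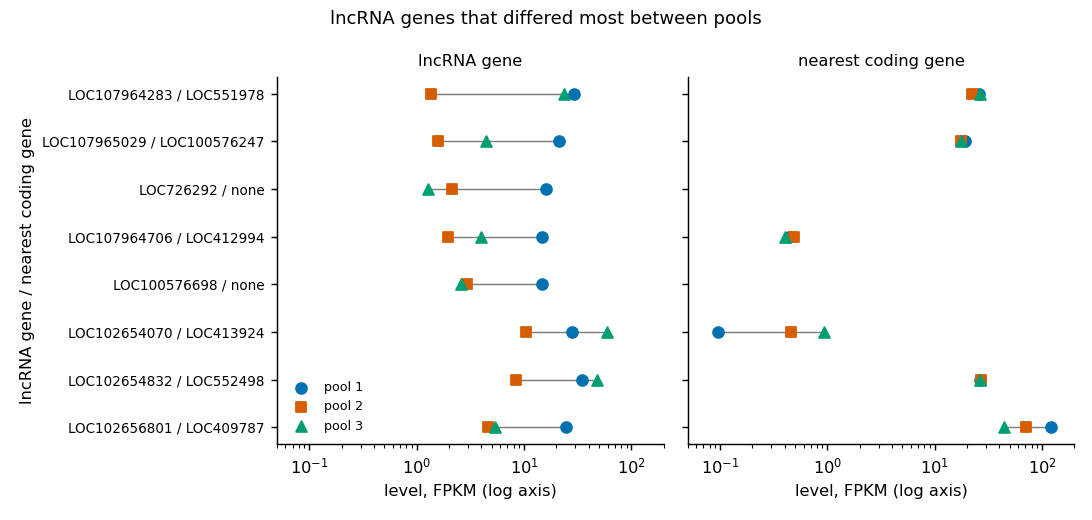
FPKM (log axis) of the 8 lncRNA genes with the largest highest-to-lowest ratio among those at 5 FPKM or more (left) and of their nearest coding genes (right), a symbol for each pool and a grey line for the range. LOC107964283 spans 1.36 to 29.0 FPKM beside a neighbour at 22.2 to 26.6, and only the neighbours LOC409787 and LOC413924 in this set span more than 2-fold.

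Differences between pools were also compared with those of the neighbour. In the 365 pairs at 1 FPKM or more, the log2 ratio of pool 1 to the mean of pools 2 and 3, on the FPKM + 1 scale, had a Spearman's rho of 0.276 between lncRNA gene and nearest coding gene. The coding gene on the other side gave 0.0547 over 316 pairs. By position rho was 0.404 for lncRNA genes downstream of their neighbour (108 pairs), 0.278 upstream (88), 0.375 tail-to-tail (67) and 0.0460 head-to-head (102). Within 1 kb it was 0.610 upstream (32 pairs) and 0.0116 head-to-head (43 pairs). All pairs share the same 3 libraries, these values carry no test, and the differences between positions were not tested.

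**Figure D5:**
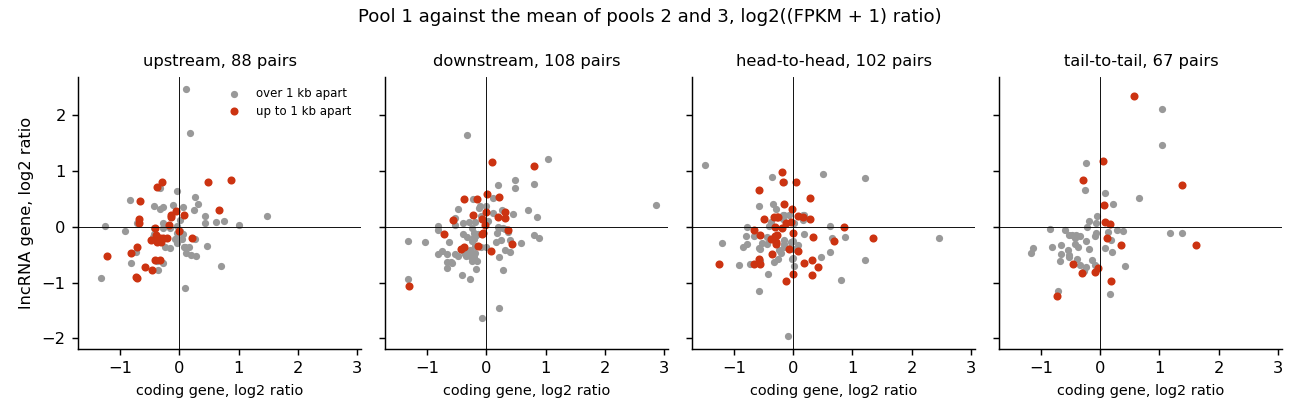
Log2 ratio of pool 1 to the mean of pools 2 and 3, on the FPKM + 1 scale, of lncRNA genes (vertical) against their nearest coding genes (horizontal), for pairs with both means at 1 FPKM or more, by position; red points are up to 1 kb apart. Red points follow a rising trend in the upstream panel (rho 0.610 over 32 pairs) and follow none in the head-to-head panel (0.0116 over 43 pairs). In the downstream panel their rho is 0.405 over 24 pairs.

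Precursors of 5 of the 152 known miRNAs in the small RNA tables lay inside these genes, and those of the 12 newly predicted miRNAs did not. LOC107965722, on LG16 at 2494820 to 2512651 on the minus strand, holds the precursor of miR-10 at 2496380 to 2496479 on the same strand. It had 7.06, 9.61 and 11.0 FPKM, and its nearest coding gene, the Hox gene Sex combs reduced (LOC551506, which sets segment identity) 12121 bp away, had 0.903, 1.88 and 2.13. miR-10, a miRNA kept within Hox clusters across animals, had 19269, 12830 and 13527 RPM (reads scaled to library size). The lncRNA gene and Scr were lowest in pool 1, where miR-10 was highest. The newer RefSeq table lists LOC107965722 as protein-coding.

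LOC102656787, on LG8 at 6340850 to 6342975, holds miR-31a on the same strand and had 0.520, 0.0706 and 0.808 FPKM from 17, 2 and 22 fragments. miR-31a itself stood at 11517, 4455 and 6594 RPM, so both were lowest in pool 2. miR-9a, a miRNA that in Drosophila limits sensory organ precursors, lies in LOC100577074 on the opposite strand at 12454, 10987 and 13711 RPM. LOC100577074 had 1.17, 3.29 and 1.56 FPKM and starts 238 bp head-to-head from LOC411700, the Hsp90-type chaperone gene heat shock protein 83-like, at 37.0, 99.9 and 80.0. Both genes of that pair were highest in pool 2 and lowest in pool 1. miR-315, opposite LOC107964108 (1.04, 1.67 and 3.12 FPKM), had 34.2, 1.48 and 3.58 RPM, and miR-3763, inside LOC102655758, had 3 reads in pool 1 and none in the other pools. The RNA-seq table also places the miR-92b-1 gene in LOC409009, at 6.36, 5.36 and 6.63 FPKM.

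Back-splice junctions, the marks of circular RNAs, were listed on the same strand inside 77 of the 1137 genes (6.77%), 156 junctions of 11794 (1.32%). The share in other classes of gene is not given here, so 6.77% is not read as high or low. A single junction was listed in 47 of the 77, and some, such as LOC102655982, had signal in 1 pool only. Their normalised signal (SRPBM, the back-spliced read level scaled to library size) was 0.869%, 0.720% and 0.785% of the total in the 3 circRNA libraries. LOC100578882, a gene of 183551 bp on LG1 at 22990647 to 23174197, held 21 junctions with a summed signal of 65892, 41068 and 36348 SRPBM and had 15.4, 12.1 and 12.2 FPKM. LOC100578777, on LG6 at 8513548 to 8600468, held 3 junctions with 13390, 25304 and 21339 SRPBM at 6.01, 11.97 and 6.93 FPKM. These 2 genes held 58.7% of the circular signal of the class. The third, LOC102655698, was at 3377 ± 1140 SRPBM and 1.41 ± 0.411 FPKM. Circular signal and FPKM were both highest in pool 1 for LOC100578882 and in pool 2 for LOC100578777. For LOC102655698 they went apart. Its FPKM of 1.78, 1.47 and 0.969 was highest in pool 1, where its signal of 2255, 4535 and 3342 SRPBM was lowest. Across the 77 genes, Spearman's rho between circular signal and FPKM was 0.190, with no test.

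Neighbouring lncRNA genes often followed each other with no coding feature between: 596 of the 1137 (52.4%) sat in 219 runs of at least 2. The longest run, 8 genes over 63.0 kb of LG6 (16111888 to 16174937), ranged from LOC107964661 at 0.0980 FPKM on average to LOC107964662 at 2.21 FPKM. Its nearest coding gene is a sorbitol dehydrogenase-like gene (LOC408871) at 122, 108 and 175 FPKM, so a high neighbour went with low levels through the run. A run of 7 over 183.2 kb of LG11 (2191242 to 2374429) begins beside LOC412839, the homeobox gene caupolican, at 47.6, 55.03 and 66.1 FPKM. Its highest gene, LOC102656919 at 2.16, 3.73 and 3.35 FPKM, is the one nearest to caupolican. The levels did not follow the order along the run. LOC107965293 lies inside the bounds of LOC102656919 on the opposite strand, so their reads may be shared, and averaged 1.25 FPKM. LOC102653574, the next along, averaged 1.18 FPKM. LOC100576080 and LOC102653698 farther on averaged 2.66 and 2.10, and LOC102653728 at the far end averaged 0.390. The other run of 7, over 30.9 kb of LG11 (3157938 to 3188865), holds the abundant LOC107965177 described above and LOC107965176 at 25.6, 35.9 and 37.5 FPKM, while LOC102654721 in the same run had 0.0897, 0.310 and 0.161 from 4, 12 and 6 fragments. The highest and lowest means of this run differed by 255 times.

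Annotation bears on which of these genes count as non-coding. By symbol, 534 (47.0%) were found in a newer RefSeq gene table of assembly Amel_HAv3.1, where 507 were lncRNA, 25 protein-coding, 1 a pseudogene and 1 miscellaneous RNA. The median FPKM was 1.52 for the 25 and 0.935 for the 507. These were 2.20% and 44.6% of the genes away from coding genes. Of the overlapping lncRNA genes, 11 (0.717%) were protein-coding and 792 (51.6%) lncRNA in the newer table. A best protein match was recorded in the deposited table for 188 genes (16.5%), of which 75 named a protein other than an uncharacterized or hypothetical one. The share with a match was higher among overlapping lncRNA genes, at 345 (22.5%). Besides those named above, LOC100578102, a gene of 369314 bp on LG12, had an ankyrin repeat protein match and 24.0, 33.8 and 27.1 FPKM. Genes with a match had a median level of 1.24 ± 0.12 against 0.93 ± 0.05 without, a difference of 0.30 ± 0.07 on the log2(FPKM + 1) scale that was positive in 3 of 3 pools (exact sign-flip permutation p = 0.25, the smallest possible). LOC100577603, protein-coding in the newer table and lying 1725 bp downstream of the POU domain gene CF1A-like LOC410203, was at 21.2, 30.5 and 36.5 FPKM, below its neighbour at 40.8, 64.2 and 61.0.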

How the data were processed

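The authors deposited FPKM per gene (RNA-seq), a normalised signal (SRPBM) per circRNA junction, and read counts with RPM per miRNA, 1 column per library. Per the submitters' processing notes, Bowtie, Bowtie2 2.0.6, TopHat2 2.0.9 and HTSeq 0.6.1 were used, without roles; the genome build and the strand rule of counting are not given in the sources used here. Libraries came from a directional kit, per the labels' protocols. Positions are those of the deposited table.

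From FPKM, 13202 of 13204 features gave whole fragments (tolerance 1e-06), which set library totals, exonic lengths and fragment counts. Each length is the smallest up to the span with whole fragments in all 3 libraries, so lengths and counts per gene are lower bounds. Counting error alone is covered by these totals. No count test was run, since there is 1 group. The gap to the nearest coding feature was taken between gene bounds on the same sequence. Class differences were taken within each library and tested by flipping the signs of the 3 pools (exact permutation test, two-sided). Benjamini-Hochberg adjustment was over 4 tests. Depth recovery, neighbour finding and median differences were checked on simulated data, with planted changes larger than the class differences here. The sign-flip test and its adjustment were not part of that check. The protein match and pair values have no adjusted p.

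Named genes are the 10 highest, the 8 with the largest ratio between pools, the 5 nearest and 5 farthest at 5 FPKM or more, the 5 farthest above and the 5 farthest below their neighbour, named genes other than LOC, miRNA and circRNA hosts and the 3 longest runs. LOC100578102 and LOC100577603, with a protein match and a changed biotype, were added for their annotation after their values were seen. Members and lists were chosen with earlier results of these data known. Alternatives changed the pseudocount, the low filter, the thresholds, the class bounds and the pools used. Python 3.11.15, pandas 2.3.3, numpy 2.4.6, scipy 1.17.1 and matplotlib 3.10.9 were used. Whether pools differ beyond library preparation cannot be told from 1 library each. Promoter and transcript sequences were not used here.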

Additional observations from a re-analysis of the deposited data

Results flagged for a closer look

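In the small RNA libraries, outside the RNA-seq measurement, 4 miRNAs with precursors inside these lncRNA genes were read more than 3 times, the floor used here as there are no control samples. miR-10 in LOC107965722 averaged 15209 ± 3534 RPM (n = 3), miR-9a opposite LOC100577074 averaged 12384 ± 1363 RPM, and miR-31a in LOC102656787 averaged 7522 ± 3621 RPM. miR-315, opposite LOC107964108, averaged 13.1 ± 18.3 RPM, with 210 of its reads in pool 1 and 12 and 27 in the others.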

How the results depend on the processing

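The 3 level differences other than the head-to-head one kept their sign under all their alternatives: -0.22 to -0.03 for lncRNA genes away from against overlapping coding genes (12 alternatives), 0.08 to 0.38 for within against beyond 5 kb (10) and -0.87 to -0.53 for the neighbours against coding genes at large (8). None could pass a threshold with 3 pools. The head-to-head difference reversed to 0.0208 with no filter on low values. The 373 genes at 1 FPKM in every pool became 560 at 0.5 FPKM, 218 at 2 FPKM and also 218 with genes at least 1 kb from a coding feature on their own sequence, a rule that also drops the 131 genes on scaffolds with no coding feature; with those kept it was 271. The 37 genes differing 2-fold became 15 of 73 with that distance rule and 23 of 93 with those scaffolds kept. With a pool left out they were 10 to 33. At a mean of 1 FPKM or more they were 177 of 498 (35.5%), against 17.2% of all listed features and 31.7% of overlapping lncRNA genes. At 3-fold they were 13 of 135 (9.63%), against 3.93% and 3.33%. The rank correlation of 0.129 became 0.115 with no filter, 0.172 at 1 FPKM or more in both, 0.0958 with the neighbour on the other side, and 0.119 to 0.140 with a pool left out. The cause of these shifts was not tested beyond what each change of rule sets. Alternatives chosen after the data were seen were the linkage groups alone, genes with no protein match, the fragment minimum, the level range, the changed sets of coding genes, the other-side neighbour and the distance rule with those scaffolds kept. No paired analysis was possible because there is 1 group per kind of library; each class difference was already taken within a pool. Depth limits the 63 genes with a lower-bound count of 3 fragments or fewer.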
